A study of Mus musculus with 2 samples.

Results

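The interferon-inducible p200 genes are a cluster of related mouse genes on chromosome 1 that includes Aim2. The 5 genes described here are Ifi202b, Ifi203, Ifi204, Ifi205 and Aim2, among 18206 genes that could be named on the array. They were chosen by name with their signals on these arrays already known, so their values are a description and carry no test. Every non-control probe whose RefSeq accession belongs to one of them was read, which gave 6 of 41134 probes: 1 for Ifi202b, 3 for Ifi204, 1 for Ifi205 and 1 for Aim2. No probe was matched to Ifi203, which is therefore not analysed here. Of the other 4 genes, 2 were well above background on both arrays.

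Gene expression was measured in mouse epidermis in the steady state with 1 one-colour Agilent array for each of 2 genotypes. The array called control was hybridised with RNA of Nfkbiz flox/flox epidermis, and the one called knockout with RNA of Nfkbiz flox/flox epidermis that also carries K5-cre. Both genotypes carry the floxed Nfkbiz allele, and only the second carries the recombinase, which is driven by the keratin 5 promoter, active in basal keratinocytes, so other cells of the peeled sheet are not its target. Strain, age, sex and the number of mice behind each RNA are not given in the sources used here. Differences between genotypes therefore cannot be told apart from differences of strain, age or sex, or from differences between single mice. No difference below has a replicate check.

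Proteins of this family carry a DNA-binding HIN domain, and most also carry a pyrin domain, through which they bind other pyrin proteins. AIM2 senses double-stranded DNA in the cytosol and recruits the adaptor ASC, encoded by Pycard, to activate caspase-1 and release IL-1β and IL-18. The p202 protein, encoded by Ifi202b, has HIN domains without a pyrin domain and can hold AIM2 back by binding DNA. Ifi202b is also known as a lupus susceptibility gene of mice whose transcript differs strongly between inbred strains and is scarce in C57BL/6. Ifi204 encodes p204, a nuclear protein with roles in differentiation and in sensing DNA. The genes are named for their induction by interferon in leucocytes and other cells.

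The start sites of the genes are shown because induction by interferon runs through short elements near them, and the members differ there. RefSeq windows of GRCm38.p6, a C57BL/6J assembly, were available for 12 of the 14 family genes in the table, in 14 windows, including 4 of the 5 genes described here. Each window runs from 250 bases before to 50 after a start, 5′ to 3′ on the gene's strand. Capitals mark matches, on either strand, to the interferon-stimulated response element core (a pair of GAAA runs with 2 bases between them), to the STAT element TTCNNNGAA, to the AP-1 element TGANTCA or to the NF-κB motif.
Ifi202b, chr1:173982795-173983094, minus strand: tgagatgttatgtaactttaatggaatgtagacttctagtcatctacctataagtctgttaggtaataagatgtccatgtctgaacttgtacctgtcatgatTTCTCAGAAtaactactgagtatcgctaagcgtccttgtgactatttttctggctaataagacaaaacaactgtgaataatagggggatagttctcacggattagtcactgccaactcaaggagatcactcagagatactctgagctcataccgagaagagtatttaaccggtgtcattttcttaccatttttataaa
Ifi203, chr1:173942443-173942742, minus strand: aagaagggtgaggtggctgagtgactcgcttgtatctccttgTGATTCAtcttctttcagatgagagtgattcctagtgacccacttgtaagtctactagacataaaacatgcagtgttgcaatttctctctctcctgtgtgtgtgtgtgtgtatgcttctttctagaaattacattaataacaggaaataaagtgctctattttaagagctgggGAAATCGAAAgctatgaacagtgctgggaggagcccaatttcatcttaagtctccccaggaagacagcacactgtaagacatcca
Ifi205, chr1:174031706-174032005, minus strand: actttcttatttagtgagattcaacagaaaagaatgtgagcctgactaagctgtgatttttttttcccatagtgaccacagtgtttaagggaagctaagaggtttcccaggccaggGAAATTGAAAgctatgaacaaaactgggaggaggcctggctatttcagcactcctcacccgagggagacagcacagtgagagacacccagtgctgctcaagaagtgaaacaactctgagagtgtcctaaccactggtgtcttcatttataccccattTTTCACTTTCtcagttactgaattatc
Aim2, chr1:173420354-173420653, plus strand: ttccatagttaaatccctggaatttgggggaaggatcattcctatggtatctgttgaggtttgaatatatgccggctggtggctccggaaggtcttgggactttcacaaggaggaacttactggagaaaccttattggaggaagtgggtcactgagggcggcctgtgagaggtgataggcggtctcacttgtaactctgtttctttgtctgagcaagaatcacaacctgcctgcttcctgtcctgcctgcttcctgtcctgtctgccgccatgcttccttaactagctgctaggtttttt

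The response element core lay in 10 of the 14 family windows, against 3.44% of all 32851 windows of this length in the table. By gene it lay in 9 of 12, and the exceptions were Ifi202b, Aim2 and Ifi209. Counted from the start site, its first base was at -35 in the Ifi203 window shown and at -134 in Ifi205, which had another match at 24. The same letters recurred between relatives. GAAATCGAAA, on the gene's strand, was in the windows of 7 family genes and in 13 of all 32851 windows, and GAAATTGAAA was in those of Ifi205 and Ifi211. The Ifi202b window held 1 match of another kind, to the STAT element (8.3% of all windows), at -148. The Aim2 window held none of these motifs, so the capitals are absent from it. Of the AP-1 element, found in 7.81% of all windows, the printed Ifi203 window had 1 match, and of the NF-κB motif (8.46% of all windows) the windows shown had none. The other Ifi203 window, not printed, had 1 NF-κB match, at -107, 1 AP-1 match, at -28, and no response element core. Among the 14 family windows, 5 held the AP-1 element and 2 the NF-κB motif. A match is a string of letters, not a shown site, and these mice may carry other sequences than the assembly.

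Both arrays gave usable signals over the same range. The 75th percentile of signal, to which each array was scaled, was 205 (control) and 239 (knockout), 56.2% and 56.3% of probes were well above background, and none was saturated. Nfkbiz, the targeted gene, had a signal of 3100 in control and 1760 in knockout epidermis, a log2 difference of -1.04 ± 0.20, where the error here and below is that of the scanner software's error model and covers technical error only. Its 1 probe cannot be placed relative to the deleted part from the sources used here, so it may check nothing. Keratinocyte markers matched the labelled tissue: all 14 with a probe were measured, between -0.31 and 0.41, with Krt5 at 52200 and 54400 and Krt10 at 76900 and 80200 on the control and knockout arrays.

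Ifi202b and Ifi204 were lower on the knockout array, Ifi205 and Aim2 were not well above background on either array, and no member was higher. At least 2-fold lower were thus 2 of the 2 members measured on both arrays. In the same comparison, over all 12407 genes that both arrays measured, 4.4% lay 2-fold or more lower and 3.02% 2-fold or more higher (7.42% in either direction). The members were chosen for these values, so nothing is read from that contrast.

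Ifi202b, the gene of the p202 protein, had a processed signal of 13200 ± 1320 in control epidermis and 1170 ± 117 in knockout epidermis. The control signal was thus 11.3 times the knockout signal before any scaling. With each array scaled to its 75th percentile the log2 difference was -3.72 ± 0.20, or 13.2-fold lower. Only 4 of the 12407 measured genes were further down. The transcript was still plainly detected on the knockout array, where the median pixel of the spot was 1300 over a local background of 22, against 14100 over 20.5 on the control array. The value rests on 1 spot per array. The 14 other measured spots within 3 rows and 3 columns of it had a median difference of -0.11, between -0.88 and 0.91, and no spot there was marked as non-uniform. Ifi202a, an older name for a near-identical copy, is a synonym of Ifi202b in the name table, so the probe may read both.

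Ifi204, the gene of p204, was read by 3 probes, and both that were well above background were lower on the knockout array. The brighter probe had signals of 139 ± 14.2 and 57.7 ± 6.36 on the control and knockout arrays, a log2 difference of -1.49 ± 0.22 (2.81-fold lower). The second had 75.1 ± 8.02 and 27.9 ± 3.75, a difference of -1.65 ± 0.25 (3.14-fold lower). The 2 probes therefore lie within their errors of each other. The third probe was not well above background on either array, at 4.60 and 8.19, and gives no difference. Spots around the 2 measured probes had median differences of -0.17 over 26 spots and 0.01 over 23. With normexp correction, run on median spot signals and with an offset of 50 added, the brighter probe was at -0.98 and the second at -0.82, both under 2-fold. How much of this narrowing comes from the offset and how much from the background step was not tested.

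Ifi205, which encodes the family member first described as D3, had signals of 18.5 ± 5.22 and 19.4 ± 4.69 at its 1 probe, neither well above background. Aim2, the DNA sensor, had 3.46 ± 2.82 and 4.03 ± 2.65, also not well above background on either array. For comparison, the lowest signals marked as well above background were 12.7 (control) and 12.1 (knockout). Aim2 lay below these and Ifi205 above them, though the scanner software did not mark Ifi205 as well above background. A fold is given for neither gene.

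**Figure D1:**
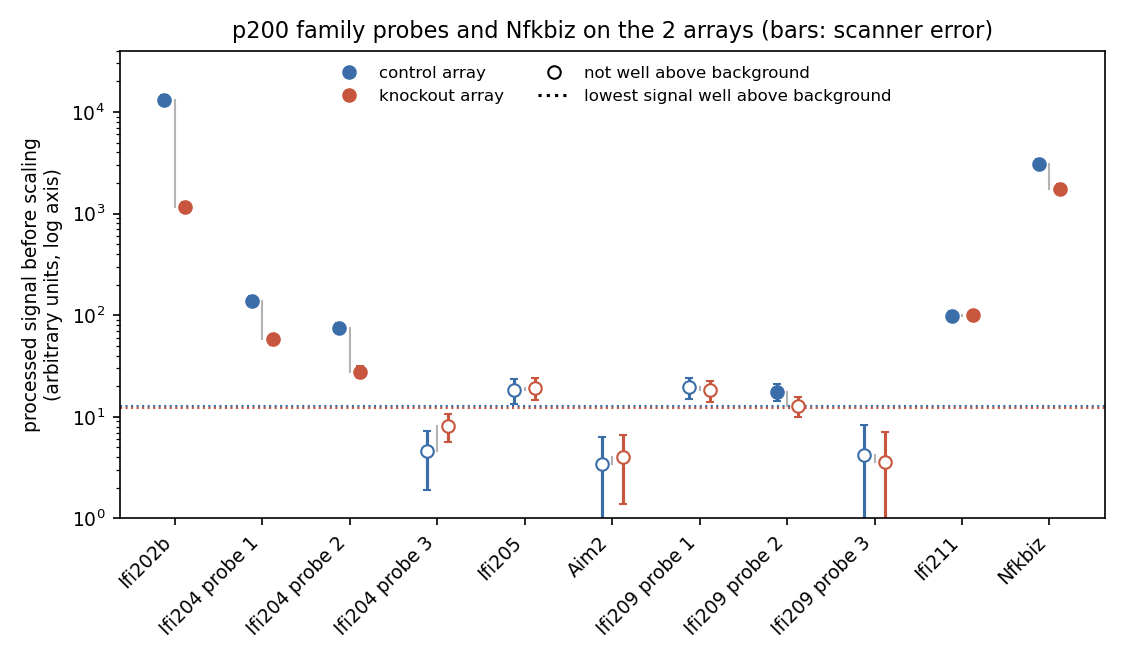
Processed signal, on a log axis, of each probe of the p200 family and of Nfkbiz on the control array (blue) and the knockout array (red). Bars are the scanner's error, open points are not well above background, and dotted lines mark the lowest signal well above background. Ifi202b drops from 13200 to 1170 and both measured Ifi204 probes drop. Ifi205 and Aim2 are not marked as well above background on either array, though Ifi205 lies above the dotted lines.

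Of the relatives that were not among the 5 genes, only Ifi211 was measured on both arrays, and it did not show the same drop. The name table holds 14 family genes, 9 of them outside the 5, and 2 of those 9 had a probe. Ifi211 had signals of 98.1 and 99.4 on the control and knockout arrays, a log2 difference of -0.20 ± 0.22, which is smaller than its error and turned to 0.12 under median scaling. Ifi209 had 3 probes, and just 1 was well above background, on the control array alone, at 17.5 ± 3.35 against 12.8 ± 2.92. Its other probes, at 19.6 against 18.2 and 4.20 against 3.57, were not well above background on either array, and no fold is given for the gene. In gene order Mndal, Ifi211 and Ifi203 lie between Ifi204 and Ifi202b, and Mndal and Ifi203 had no matched probe. The 1 gene measured between the 2 lower genes was thus level between the arrays within its error. Ifi206, Ifi207, Ifi208, Ifi213, Ifi214, Mndal and the pseudogene Ifi203-ps had no matched probe and are not analysed here.

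Among the 10 genes on either side of the cluster, 19 of 20 had a probe and 2 were measured on both arrays, both olfactory receptor genes. Olfr430 had signals of 81.1 and 59.5 (-0.67 ± 0.22) and Olfr424 46.5 and 40.9 (-0.41 ± 0.25). Neither was 2-fold apart. Fcer1a, the IgE receptor chain of mast cells, and Ackr1, the atypical chemokine receptor of red cells and venules, were not well above background on either array. The adhesion molecule gene Cadm3 was well above background on the control array alone, at 24.7 against 11.8 (at least 2.38-fold lower), as were Olfr218 and Olfr418 (at least 1.61-fold and 1.78-fold lower).

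**Figure D2:**
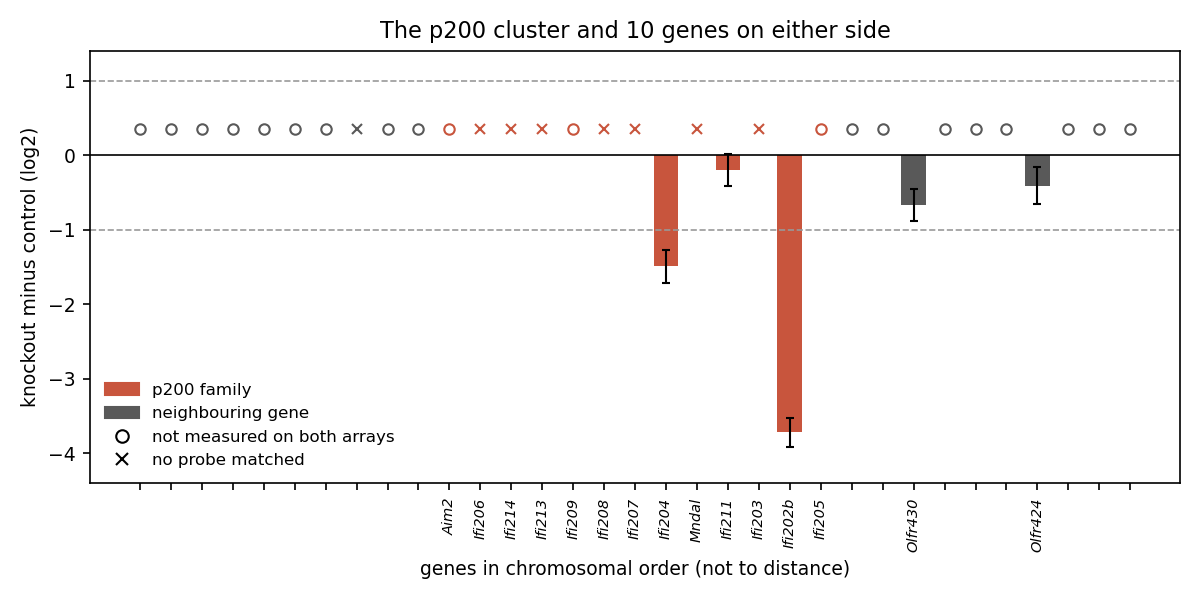
Log2 difference, knockout minus control, of the p200 genes (red) and of the 10 genes on either side (grey), in chromosomal order and not to distance, with names for the p200 genes and the measured neighbours. Bars carry the scanner's error, open circles are genes not measured on both arrays and crosses genes with no matched probe; Ifi204 and Ifi202b reach past the dashed 2-fold line and Ifi211 between them does not.

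Genes of the pathway downstream of Aim2 lay within 2-fold where both arrays measured them, by their brightest probe. Of 19 inflammasome genes with a probe, both arrays measured 13. Of these 0 were at least 2-fold higher and 0 lower, against 3.02% and 4.4% of all genes, so nothing is read from the counts. Their median was 0.02, against -0.04 over all genes. Pycard, which encodes the adaptor ASC, had signals of 12000 and 13400 (-0.06 ± 0.20). Casp1, the caspase that ASC activates, had 438 and 641 (0.33 ± 0.20), and Gsdmd, the pore-forming gasdermin, 23.7 and 34.2 (0.31 ± 0.29). The cytokine genes Il1b and Il18, whose products caspase-1 cleaves, had differences of -0.14 ± 0.21 and 0.18 ± 0.20. The widest of the list was P2rx7, an ATP-gated channel, at -0.42 ± 0.21. Of the other sensors Nlrp10 and Naip2 were measured, at 0.08 ± 0.20 and 0.02 ± 0.38. Nlrp3 and Mefv were well above background on the control array alone, at 15.6 against 10.6 and 19.7 against 13.4. Panx1, a channel gene, had probes at 0.14 and -2.50, and the brighter one stands for the gene. With the mean over probes 1 inflammasome gene was at least 2-fold lower.

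Genes of the cytosolic DNA sensing pathway, in which p204 has also been placed, had 26 of 27 members with a probe measured, 0 at least 2-fold higher and 1 lower, with a median of 0.21. Those counts lie near the shares over all genes, 3.02% higher and 4.4% lower, so nothing is read from them. The cyclic dinucleotide synthase gene Cgas had signals of 191 and 264 (0.25 ± 0.21) and Sting1, the receptor for its product, 73.4 and 114 (0.41 ± 0.22). The transcription factor genes downstream of it, Irf3 and Irf7, differed by -0.23 ± 0.20 and 0.53 ± 0.22. Enpp1, which degrades that cyclic dinucleotide outside cells, was the 1 lower gene, at 106 and 30.8 (4.01-fold lower). Samhd1, a nucleotide hydrolase, was the highest, at 0.80 ± 0.21. Zbp1, a sensor of Z-form nucleic acid, was well above background on the knockout array alone and at least 1.79-fold higher there.

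Interferon ligand genes were mostly dim. Of 8 with a probe, 2 were measured on both arrays: Ifna2 at 180 and 49.9 (-2.07 ± 0.22) and Ifna5 at 45.9 and 21.9 (-1.29 ± 0.27), both lower on the knockout array. These belong to a family of near-identical genes that probes can share, so which of them is read is uncertain. Ifnk, the interferon of keratinocytes, was well above background on the control array alone, with signals of 36.9 and 18.2. After scaling the ratio of these was 2.36-fold lower on the knockout array, which is not a bound because the dim signal has its own error. Ifng, which encodes interferon-γ, was at least 2.19-fold higher, with 12.4 and 32.4. Ifnb1 was not well above background on either array.

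Receptor genes lay within 2-fold. Ifnar1 and Ifnar2, which encode the type I receptor, differed by -0.11 ± 0.20 and -0.55 ± 0.21, the second with its other probe at 0.33. Ifngr1 and Ifngr2, for interferon-γ, differed by -0.47 ± 0.20 and -0.04 ± 0.20. Of the 19 receptor and signalling genes, all measured, 5 were at least 2-fold higher and 1 lower, with a median of 0.39. Over all measured genes 3.02% were at least 2-fold higher and 4.4% lower. Irf1, an interferon-γ-induced transcription factor, had signals of 618 and 6110 on the control and knockout arrays (3.08 ± 0.20, 8.48-fold higher), and its other probe was at 3.23. Irf8 and Irf9 were at 1.15 ± 0.24 and 1.01 ± 0.20, the latter with its other probe at 0.45, and the feedback protease gene Usp18 at 1.08 ± 0.20. Stat2 was at 0.30 ± 0.21. The lower gene was the kinase gene Jak2, at 781 and 312 (-1.55 ± 0.20).

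Of the other interferon-induced genes, 14 of 42 measured in 2 lists were at least 2-fold higher, 0 were 2-fold lower, and 9 had a difference below 0. For these and the counts below, the shares over all measured genes were 3.02% higher and 4.4% lower. Of 25 measured type I interferon-stimulated genes, 6 were at least 2-fold higher and 0 lower, with a median of 0.41 and a lowest value of -0.49. They were Rtp4 (32.5 and 132, 3.48-fold higher), Oas1a (1.57 ± 0.31), Parp14 (1.49 ± 0.21), the RNA-activated kinase gene Eif2ak2 (1.37 ± 0.21), Isg15 (1.36 ± 0.21) and Xaf1 (1.03 ± 0.23). Of 17 measured interferon-γ-induced genes, 8 were at least 2-fold higher and 0 lower, with a median of 0.90 and a lowest value of -0.66. The GTPase genes Irgm2 (86.1 and 639), Igtp (203 and 1090), Gbp2 (72.5 and 386) and Irgm1 (32.9 and 169) were 6.37-fold, 4.61-fold, 4.57-fold and 4.41-fold higher, and the immunoproteasome genes Psmb8, Psmb9 and Psmb10 were 2.17-fold, 2.13-fold and 2.12-fold higher. The eighth was the chemokine gene Cxcl9, at 18.9 and 76.1. A further member, the GTPase gene Iigp1, was measured on the knockout array alone and was at least 11.5-fold higher. Gbp5 was measured on the control array alone, at 20.2 against 10.8, and was at least 1.95-fold lower. When 1 array sufficed for a gene to be measured, 14 genes of this list were at least 2-fold higher and 1 lower. Over the 2 lists 0 genes were as low as Ifi204 or Ifi202b. These 2 were chosen with their low values known, so nothing is read from that contrast. The list medians were 0.73 and 1.22 under median scaling, which moves the median of all genes by 0.32, and 1 of the type I genes was at least 2-fold higher under normexp.

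**Figure D3:**
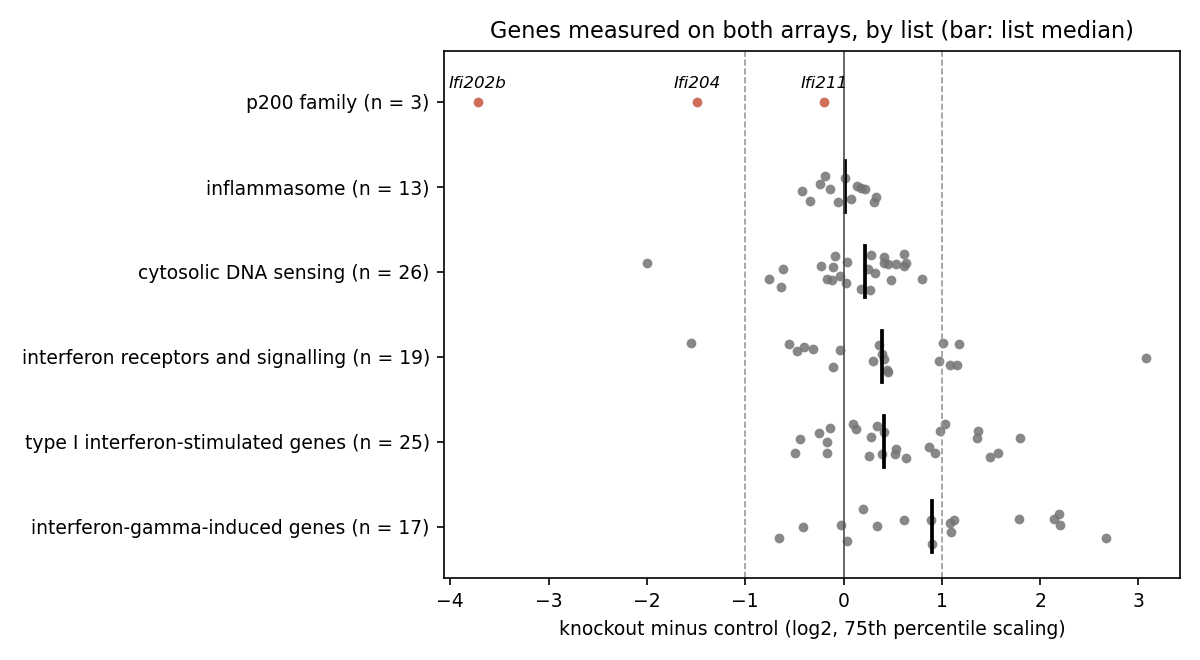
Log2 difference, knockout minus control, of every gene measured on both arrays in the p200 family (red, named) and in 5 pathway lists (grey), with a black bar at each list's median and dashed lines at 2-fold. Ifi202b at -3.72 and Ifi204 at -1.49 lie left of every interferon-stimulated and interferon-γ-induced gene, whose medians are 0.41 and 0.90. The p200 members were chosen with these values known, so their place is a description.

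Genes whose difference came nearest to that of each lower member, over the 2 arrays, were of other kinds. For Ifi202b they were Krt16, a stress keratin (24300 and 2090, -3.76 ± 0.20), Abhd2, a lipase gene (1110 and 115, -3.49 ± 0.21), and Alas2, the erythroid enzyme of haem synthesis (223 and 16.9, -3.94 ± 0.30). For Ifi204 they were the deubiquitinase gene Yod1 (-1.49 ± 0.20), Penk, which encodes proenkephalin (-1.49 ± 0.21), and the focal adhesion gene Zyx (-1.48 ± 0.20). The difference of Ifi204 was at rank 215 from the lowest of the 12407 genes.

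Marker levels of other cell types also differed between the arrays, and in such a tissue fewer cells of a type and less RNA per cell cannot be told apart. Of 15 monocyte and macrophage markers with a probe, 9 were measured, 1 was at least 2-fold lower (C1qa, -1.12 ± 0.31) and 0 higher, and their signals summed to 8610 (control) and 7810 (knockout) before scaling, as are all marker sums here, a ratio of 0.778 after scaling. Ly6c2 held most of both sums, at 6280 and 4930. Lyz2, Mrc1, Cd163, Fcgr1 and Mertk were not well above background on either, while the receptor genes Csf1r and Adgre1 were at 0.53 and 0.48. Of 13 T-cell markers, all measured, 4 were at least 2-fold higher and 1 lower, with sums of 4460 and 5230, a ratio of 1.01 after scaling. Of 10 Langerhans and dendritic cell markers with a probe, 9 were measured and 1, Cd207, was at least 2-fold higher (1.65 ± 0.21), with sums of 13500 and 22000. Cd74 (4720 and 9300) and H2-Ab1 (5770 and 8840) held most of both sums. The median of the list was 0.11 and its lowest value -0.85 (Xcr1). Of 7 B-lineage markers with a probe, 3 were measured and 0 was 2-fold apart, with sums of 92.9 and 122. Neutrophil markers other than S100a8 and S100a9 were all not well above background (7 of 9). S100a8 was at least 2-fold higher (65.7 and 178, 1.22 ± 0.22), while the brighter S100a9 was at -0.44 ± 0.20 (918 and 788). Their sums were 984 and 966, a ratio of 0.842 after scaling.

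Most measured markers of red blood cells, muscle and pigment cells were at least 2-fold lower on the knockout array. All 5 red blood cell markers with a probe were at least 2-fold lower, with sums of 18400 and 2150. For skeletal muscle 4 of 6 measured markers were lower, with sums of 1200 and 395, while Mylpf and Mb were at -0.04 and -0.18. For melanocytes it was 3 of 4, with sums of 1770 and 511, while Sox10 was at -0.26. For endothelium it was 1 of 2 measured, Vwf, with sums of 255 and 69.8, and Cldn5 was at -0.34. Emcn was measured on the control array alone (at least 5.36-fold lower), Tek on the knockout array alone (at least 1.30-fold higher), and Pecam1 and Kdr were not well above background on either. Of dermal fibroblast markers 7 of 10 were measured and 0 was 2-fold apart, with a median of -0.15. Their sums, 4900 and 7240, were raised by Vim (1930 and 4190), while Dcn was at -0.73. For plasmacytoid dendritic cells Siglech was not well above background on either array, and the sums, 38100 and 36500, came mostly from Ly6d, at 37600 and 35600, a gene also of keratinocytes. The part of these cell types in the differences of Ifi202b and Ifi204 was not tested.

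Ifi202b stayed more than 10-fold lower under every way of processing that was tried, from -3.73 with the authors' table to -3.40 with median scaling. Ways that only change probes, spots or filters could not move its 1 spot. Ifi204 ranged from -1.57 with the mean over its probes to -0.98 with normexp, and Nfkbiz from -1.04 to -0.72.

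**Figure D4:**
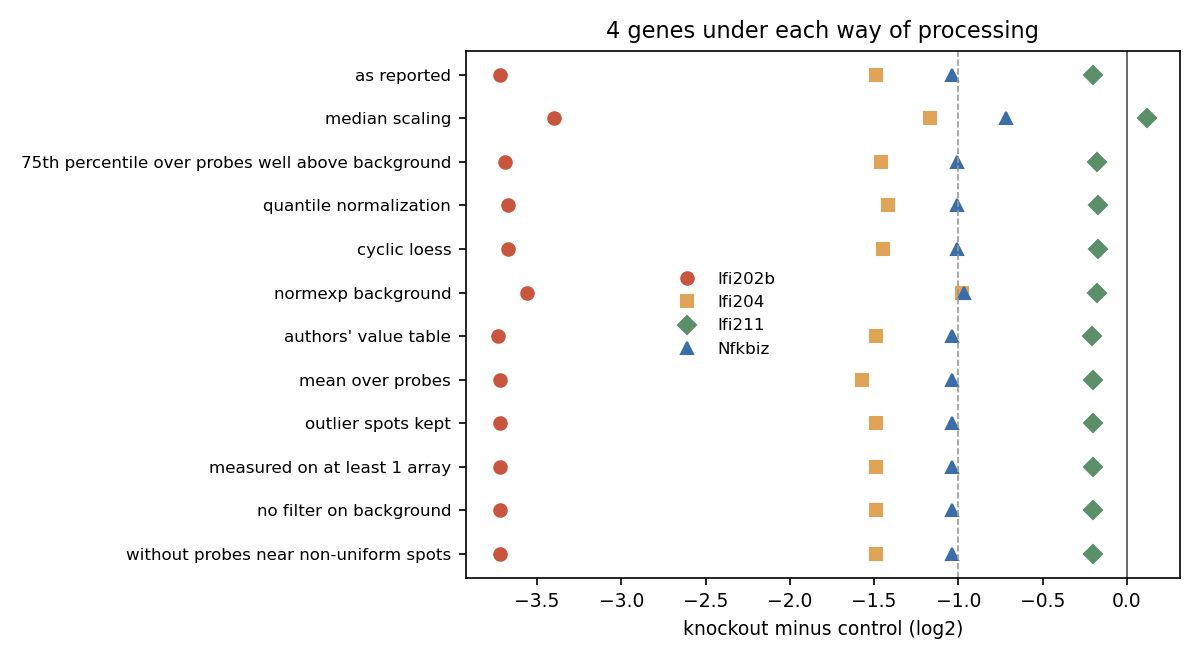
Log2 difference, knockout minus control, of Ifi202b, Ifi204, Ifi211 and Nfkbiz as reported and under 11 other ways of processing, with a dashed line at 2-fold lower. Ifi202b stays between -3.73 and -3.40, Ifi204 comes closest to the line with normexp (-0.98), and Ifi211 crosses 0 with median scaling (0.12).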

How the data were processed

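RNA of peeled epidermis, which the extraction text calls homogenised skin, was hybridised to 1 array per genotype. Skin was kept for 30 min at 37 °C in 3.8% ammonium thiocyanate and 0.5 µg of RNA was labelled with Cy3, per the labels' protocols. The deposited scanner output holds a linear, background-subtracted intensity for every spot, made by Agilent Feature Extraction 10.7.3.1, on a design annotated on mm9, per the file headers. The authors' deposited value table holds log2 values centred on each probe. Its columns sum to 0 (largest absolute sum 1e-06), their medians are 0.14 (control) and -0.14 (knockout), and its difference has a Pearson r of 1.00 with the scanner values across probes, which settles scale, centring and direction. It was used as an alternative.

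Log2 processed signals minus each array's 75th percentile over non-control probes were compared. Spots marked as outliers were dropped, repeat spots averaged, and a probe was taken as measured if it was unsaturated and well above background. Names came through RefSeq accessions of GRCm38.p6 (26662 of 41134), whose name table also gave the order of genes along the chromosome. Printed coordinates are those of the RefSeq promoter windows. A gene is its brightest measured probe. A gene measured on 1 array alone is given as "at least": its bright value is set against the lowest signal well above background on the dim array. Where the dim probe's own signal was larger, that was used, and the ratio is not a bound. Single arrays allow no test, so genes were called by size at 2-fold. The code was tested on simulated data.

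The members and gene lists were chosen with earlier results of these data known. Named genes were the 5 members and their relatives, set receptors, factors and inflammasome genes, list members 2-fold apart or otherwise the widest (at most 8 a list), measured neighbours of the cluster, the 3 nearest genes by difference, and cell type markers. Dim neighbours, probe pairs and further markers were named after their values were seen. Python 3.11.15, numpy 2.4.6, pandas 2.3.3, matplotlib 3.10.9, R 4.3.3 and limma 3.58.1 were used. Some results are not reported here.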

Additional observations from a re-analysis of the deposited data

How the results depend on the processing

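No paired analysis was possible because there is 1 array of either genotype. Ifi202b kept its direction and stayed past 2-fold under all 11 other ways of processing, and Ifi204 under 10. Ifi202b has 1 probe of 1 spot, well above background on both arrays. Ways that only change probes, spots or filters therefore could not move it from -3.72, and the authors' table nearly repeats the scaled values (-3.73). Those ways do not test Ifi202b. With normexp Ifi204 was at -0.98, 1 member was at least 2-fold lower, Nfkbiz was at -0.97, and 238 genes in all were at least 2-fold lower and 181 higher. Normexp adds an offset of 50 to every signal. It was run on median spot signals, since the files hold no mean, and without spots marked as non-uniform. Which of these steps narrowed the Ifi204 difference was not tested. With median scaling Nfkbiz was at -0.72, and 295 genes were lower and 953 higher, so that 76.4% of the genes 2-fold apart were higher, against 40.7% as reported. Counts lower and higher were 831 and 571 when 1 array sufficed for a gene to be measured, and 1421 and 668 when dim genes were kept. At a fold of 1.5 they were 1640 and 1254, and at 3 they were 188 and 105, with 1 member lower. Signal over background limits Ifi205, Aim2 and Ifi209, and the number of arrays limits every value.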

Other observations

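The windows around the start sites differ in how much they share. Over the global alignment, gaps included, the second RefSeq window of Ifi203 was 90.7% identical to a window of Mndal, a relative whose name RefSeq also lists as a synonym of Ifi203. The Ifi202b window was between 48.5% and 57.1% identical to the windows of its relatives, closest to that of Ifi208 and furthest from that of Ifi207, and 50.3% identical to that of Ifi205, its neighbour in gene order. The Aim2 window lay between 46.9% and 53.9%. The probes' own sequences were not used here, so how far a probe of 1 gene reads its relatives was not tested.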
